A study of Caenorhabditis elegans with 2 samples.

Results

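Peaks of the cohesin subunit HIM-1 were located at the genes that encode cohesin itself, the related condensin complexes and the X chromosome dosage compensation machinery of Caenorhabditis elegans. The genes were taken from a list of 33 symbols, of which 32 matched a protein-coding gene among the 19973 of the Ensembl annotation of WBcel235 on the autosomes and X. The symbol that did not match, pqn-85, is another name of scc-2, which was matched. The list held 12 cohesin genes, 9 condensin genes, 7 dosage compensation genes outside the condensin complex and 4 others (smc-5, smc-6, top-2 and lab-1). For each gene the peak summits within 500 bp of the 5' end, within 500 bp of the 3' end or elsewhere in the body were collected. Where a summit lay in the body near an end, it was counted at that end.

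The chromatin immunoprecipitation was done with an anti-GFP antibody, per the description in the labels, although their antibody field names him-1. The animals were whole young adult hermaphrodites of strain YL577, which stably expresses HIM-1 with a GFP-FLAG tag at its C terminus, collected 47 hours after starved L1 larvae were released from synchronization. There were 2 libraries in 1 group, biological replicates 1 and 2. The labels do not state that they came from separate cultures, so the spread between them may be technical, nor whether untagged HIM-1 was also made. Whole animals mix germ line and somatic nuclei, and a peak cannot be placed in a tissue. There was no second condition, so no test between groups was made.

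Cohesin is a ring built from a pair of SMC proteins, HIM-1 (SMC-1) and SMC-3, closed by a kleisin and bound by SCC-3. In this worm the kleisin differs between settings: SCC-1 serves mitosis, REC-8, COH-3 and COH-4 serve meiosis, and COH-1 is a kleisin of somatic cells. SCC-2 and MAU-2 load the ring onto DNA, WAPL-1 releases it, and EVL-14 is the worm PDS5. Condensins are related rings that compact chromosomes. MIX-1 is in all of them, and a specialised condensin containing DPY-27 binds both X chromosomes of hermaphrodites and lowers their expression. It is brought to X by SDC-2 with SDC-1, SDC-3 and DPY-30, under the control of the sex determination switch gene xol-1.

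The authors' optimal list held 2051 peaks with a signal from 60.8 to 497 and a median of 83.3. It was thresholded by IDR, a measure of how well ranks repeat between replicates. The signal is the peak caller's own value and is used only to order peaks within a list. All 2051 were the strongest of the 18314 peaks of the authors' pooled list, so a summit has the same signal and rank in both. A gene absent from the optimal list may still have a weaker pooled peak. The optimal list was thus the top of the pooled list by signal, and a single listed peak need not rank alike in both replicates. The lists of the single replicates held 22720 and 24220 peaks with signals from 10.1 and 11.1, and they contain background as well as peaks.

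Optimal summits lay at 13 of the 32 genes (40.6%, 95% Clopper-Pearson interval 23.7 to 59.4%), against 11.5% of all protein-coding genes. Summits within 500 bp of the 5' end were found at 7 genes (21.9%, interval 9.28 to 40%; background 4.47%), within 500 bp of the 3' end at 8 (25.0%, interval 11.5 to 43.4%; background 6.80%), and in the body at 2 (6.25%; background 1.41%). The 13 genes were coh-3, coh-4, rec-8, scc-2, smc-3, evl-14, mix-1, smc-4, capg-1, hcp-6, kle-2, dpy-21 and top-2. Together they had 17 summits, with 2 each at coh-3, hcp-6, mix-1 and top-2 and 1 at each of the other 9 genes. The 32 listed genes are longer than most, with a median of 5488 bp (5729 bp for the 13 with a summit) against 2027 bp for all protein-coding genes, and the shares were not compared at equal length. In the pooled list 26 of the 32 had a summit, against 49.8% of all genes, with 15 at the 5' end (background 25.5%) and 19 at the 3' end (background 31.0%).

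**Figure D1:**
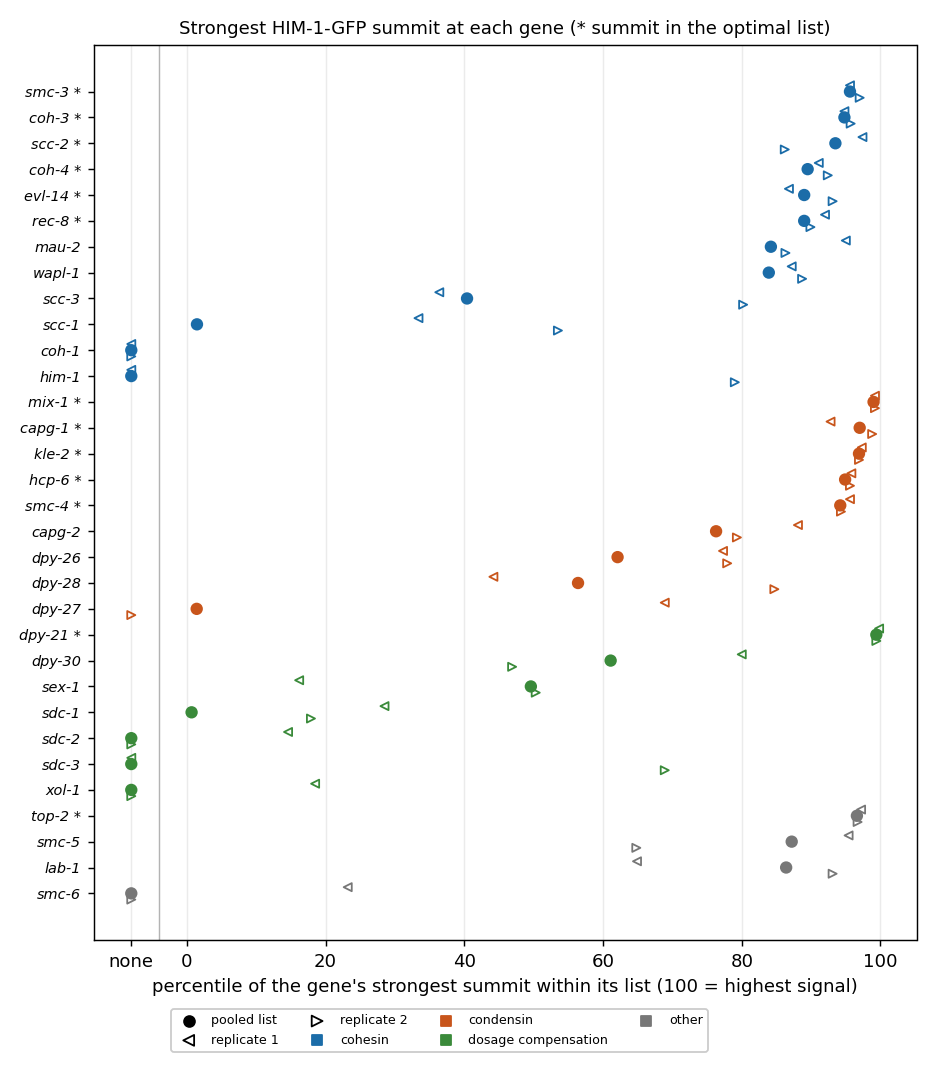
Percentile of the strongest summit of each of the 32 genes within the pooled list (filled circles) and within the lists of replicate 1 (left-pointing triangles) and replicate 2 (right-pointing triangles), where 100 is the highest signal; genes without a summit are placed at "none", colours give the 4 groups and asterisks mark the 13 genes with an optimal summit. The pooled summits of all 13 genes with an asterisk lie to the right, while him-1, coh-1, sdc-2, sdc-3, xol-1 and smc-6 have no pooled summit.

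The 3 genes for meiotic kleisins all had an optimal summit just upstream of the 5' end, whereas the other kleisin genes had none in that list. At coh-3 (V, 14457422 to 14460141, plus strand) the summit lay at -154 bp with a signal of 85.9 and rank 960 of 2051. It was in the lists of both replicates, with a signal of 34.3 (rank 1362) in replicate 1 and 48.3 (rank 1041) in replicate 2. The coh-3 gene also had a summit 238 bp past its 3' end with a signal of 67.2 (rank 1681). That summit was 286 bp from the 5' end of the next gene, F08H9.2, on the same strand. In replicate 2 it was nearer F08H9.2 (199 bp) than coh-3 (325 bp). At coh-4 (V, 4169912 to 4175640, minus strand) the summit lay at -169 bp with a signal of 62.8 (rank 1931), and in the replicates it had signals of 28.9 and 37.4 (ranks 2024 and 1835). The space between coh-4 and its head-to-head neighbour pid-5 is only 241 bp, and the summit was 73 bp from the 5' end of pid-5, nearer than to that of coh-4. At rec-8 (IV, 13349122 to 13353193, minus strand) the summit lay at -188 bp with a signal of 61.5 (rank 2011), near the lower limit of the list. Its replicate signals were 30.4 and 32.5 (ranks 1817 and 2448). The neighbour of rec-8 on that side is mex-5, which encodes a zinc finger protein, and its 5' end was 342 bp from the summit.

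The sequences at these summits are shown because the 3 windows share a run of bases. Each line gives the 101 bp centred on the summit, read 5′ to 3′ on the strand of the gene from the RefSeq WBcel235 (ce11) genome, and the capitals mark the longest run of bases common to all 3, which is 13 bases long. The windows are chrV:14457218-14457318 (plus strand) for coh-3, chrV:4175759-4175859 (minus strand) for coh-4 and chrIV:13353331-13353431 (minus strand) for rec-8.
coh-3: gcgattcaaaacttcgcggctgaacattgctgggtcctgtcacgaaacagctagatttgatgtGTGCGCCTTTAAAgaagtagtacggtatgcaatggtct
coh-4: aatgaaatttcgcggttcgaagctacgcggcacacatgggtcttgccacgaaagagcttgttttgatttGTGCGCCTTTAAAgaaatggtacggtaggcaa
rec-8: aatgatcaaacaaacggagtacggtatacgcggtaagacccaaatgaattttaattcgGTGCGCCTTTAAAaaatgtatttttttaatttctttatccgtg

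The shared run began 13 bp downstream of the summit at coh-3, 19 bp at coh-4 and 8 bp at rec-8, at -141, -150 and -180 bp from the respective 5' ends. The run was found by comparing these windows, so its presence in them is a description. In coh-3 and coh-4, whose proteins are 86.9% identical over 604 aligned residues, the run extends to 17 bases, while the REC-8 protein is 31.8% identical to COH-3 over 551 residues. The run is not rare. It occurred 952 times in the genome on either strand, within the 500 bp upstream of 114 protein-coding genes (0.571%), and in 12 of the 2051 optimal windows. Of the 108 such genes that were neither these 3 nor their head-to-head neighbours, 7 had an optimal 5' end summit (6.48%), against 4.47% of all genes. Most copies of the run were therefore not at an optimal summit.

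The kleisin genes scc-1 and coh-1, and scc-3 and him-1, had weaker summits or none. At scc-1, which encodes the mitotic kleisin, the only pooled summit was 138 bp past the 3' end with a signal of 21.9 (rank 18045 of 18314). The replicate lists gave scc-1 signals of 12.3 and 16.1, at different ends of the gene. For coh-1, on X, no summit was found in any of the 4 lists, and it was the only gene of the 32 of which this was true. At scc-3, the gene of the subunit that binds the closed ring, both pooled summits were weak, 25.9 at -265 bp and 27.4 at 61 bp past the 3' end. The gene of the tagged protein itself, him-1 (minus strand of I, 4951571 to 4957667), was without a summit in the optimal, pooled and replicate 1 lists. Replicate 2 gave him-1 3 summits, of which the strongest (22.9, rank 5082 of 24220) lay 371 bp past the 3' end, nearer the 5' end of F28B3.6, and the others had signals of 12.0 and 11.2.

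The gene of the second SMC subunit, smc-3 (III, 11290904 to 11306247, plus strand), carried its optimal summit at the 3' end. It lay 32 bp past that end with a signal of 93.4 (rank 798), the highest of the 7 cohesin summits. In the replicates it had signals of 39.4 and 57.7 (ranks 994 and 719), so both placed it among their 2051 strongest. The summit was in the 399 bp between the 3' ends of smc-3 and rab-35, which point towards each other. A weaker pooled summit (45.5, rank 3640) lay 141 bp upstream of smc-3 and 87 bp from the 5' end of its head-to-head neighbour mib-1, which was the nearer.

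Among the genes for loading and release, scc-2 and evl-14 had optimal summits and mau-2 and wapl-1 lay below the list. The scc-2 summit (II, 255366, signal 78.6, rank 1187) is in an intron of the Ensembl gene model, 8297 bp past its 5' end. That model takes its 5' end from 1 long transcript, and the RefSeq model of the same gene starts at 255196, which places the same summit 170 bp upstream of it. With the RefSeq model scc-2 would count as a 5' end gene, and no summit in the body would remain except that of mix-1. The replicates differed here, with a signal of 48.9 (rank 599) in replicate 1 and 27.9 (rank 3345) in replicate 2. The window on the strand of scc-2, chrII:255316-255416 (minus strand), is shown with its GC box in capitals.
scc-2: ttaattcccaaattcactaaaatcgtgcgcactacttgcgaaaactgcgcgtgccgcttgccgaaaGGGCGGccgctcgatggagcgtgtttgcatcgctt

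The GC box, searched as CCGCCC or CCCGCC on both strands, was in this window alone among the 17 (5.88%), against 6.73% of all optimal windows and 4.09% of windows centred 150 bp upstream of all protein-coding genes. Of 2 other motifs, GAGAGA was in the evl-14 and smc-3 windows (2 of 17, against 8.0% of optimal windows and 8.42% upstream of all genes). A run TTTTTTTT was in 3 windows, those of smc-3, hcp-6 at the 5' end and dpy-21 (background 10.2% and 13.4%). The GC box forms can overlap each other, and a window was counted once for each motif.

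At evl-14 (III, 4303096 to 4313128, minus strand) the summit lay at -155 bp with a signal of 61.6 (rank 2009), and the replicates ranked it 5034 and 1678. Just below the list, mau-2 had a pooled summit at -321 bp with a signal of 51.1 (rank 2902). That mau-2 summit was strong in replicate 1 (37.2, rank 1146), while replicate 2 had no summit within 500 bp of the 5' end of mau-2. The wapl-1 gene had pooled summits on both sides, 50.9 (rank 2941) at 111 bp past the 3' end and 32.3 at -211 bp. For wapl-1 the replicates gave like ranks at the 3' end, 2910 and 2732.

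Condensin genes had optimal summits in 5 of 9 cases (55.6%, interval 21.2 to 86.3%; all genes 11.5%), and 4 of the 9 had one at the 3' end (all genes 6.80%). These 4 3' ends (capg-1, hcp-6, kle-2 and mix-1) lie close to or overlap another gene. In a count by nearest gene only, a summit inside a neighbour went to that neighbour. On that count 0 of 9 condensin genes had one at the 3' end, and the share of all genes was not counted in that way. By distance to gene ends, capg-1 alone had a nearer neighbour there. The hcp-6, kle-2 and mix-1 summits were nearer their own 3' ends (31, 164 and 48 bp) than the neighbour's (69, 215 and 90 bp). The strongest condensin summits were at mix-1 (II, 10824246 to 10841424, plus strand), the gene of the SMC subunit common to all condensins. A summit in an intron of mix-1 had a signal of 164 (rank 179), with 73.1 and 91.2 in the replicates (ranks 182 and 188). Another mix-1 summit, 48 bp past the 3' end, had a signal of 152 (rank 218), with 70.7 and 84.3 in the replicates (ranks 207 and 252). Both therefore held nearly the same place in the 2 replicates. The intronic summit lay within 250 bp of the snoRNA gene M106.6, and the 3' end of mix-1 overlaps that of M106.8 on the other strand by 43 bp.

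The partner of MIX-1 in the other condensins, SMC-4, is encoded by smc-4 (III, 4587501 to 4593124, plus strand), with a summit at -73 bp and a signal of 82.1 (rank 1064). The strongest replicate summits within 200 bp of it had signals of 39.4 and 42.6 (ranks 995 and 1384). In replicate 1 that summit lay at -202 bp, and a nearer one at 18 bp had 17.8 (rank 6167). The optimal summit lay between smc-4 and the head-to-head gene F35G12.7, which start 170 bp apart. The gene dpy-27 encodes the SMC subunit that takes the place of SMC-4 in the dosage compensation condensin. At dpy-27 the only pooled summit was in the body with a signal of 21.9 (rank 18054), and replicate 2 had none. SMC-4 and DPY-27 proteins are 31.3% identical over 1443 aligned residues.

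Of the genes for the non-SMC subunits of condensin II, hcp-6 and kle-2 had optimal summits and capg-2 did not. At hcp-6 (I, 5165148 to 5171313, plus strand) a summit at -80 bp had a signal of 87.2 (rank 926), with 40.4 and 47.9 in the replicates. The other hcp-6 summit, 31 bp past the 3' end, had a signal of 64.4 (rank 1844). The strongest replicate summits within 200 bp of it had 33.8 and 37.2. In replicate 1 that summit lay 158 bp before the 3' end, and a nearer one, 46 bp past it, had 28.6 (rank 2064). Like coh-3 and top-2, hcp-6 thus had summits at both ends, and its 3' end overlaps that of spd-5, a gene for a centrosome protein, by 39 bp. At kle-2 (III, 7941717 to 7945593, plus strand) the summit was 164 bp past the 3' end with a signal of 109 (rank 563), and 48.4 and 56.7 in the replicates. That position is in a coding exon of gsto-1, which overlaps the 3' end of kle-2 by 52 bp on the other strand. At capg-2 the strongest pooled summit was at -233 bp with a signal of 41.5 (rank 4343), nearer the 5' end of tsfm-1.

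The non-SMC subunits shared by condensin I and the dosage compensation condensin are encoded by capg-1, dpy-26 and dpy-28. Of these capg-1 alone had an optimal summit. At capg-1 (I, 7634492 to 7639785, minus strand) it lay 295 bp past the 3' end with a signal of 111 (rank 546). The capg-1 summit was 54 bp from the 3' end of lrp-1, nearer than to its own. Replicate 2 placed the capg-1 summit much higher (81.5, rank 294) than replicate 1 (31.9, rank 1633). In replicate 1 a nearer summit had 23.7 (rank 3074). The strongest pooled summits of dpy-26 (33.4, rank 6939) and dpy-28 (31.5, rank 7987) were also at 3' ends, far below the optimal list. Counted by complex, with shared subunits counted in each, optimal summits were at 4 of 5 condensin II genes (interval 28.4 to 99.5%), 3 of 5 condensin I genes (14.7 to 94.7%) and 2 of 5 genes of the dosage compensation condensin (5.27 to 85.3%), against 11.5% of all genes. The 3 intervals overlap, and no order is read from them.

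**Figure D2:**
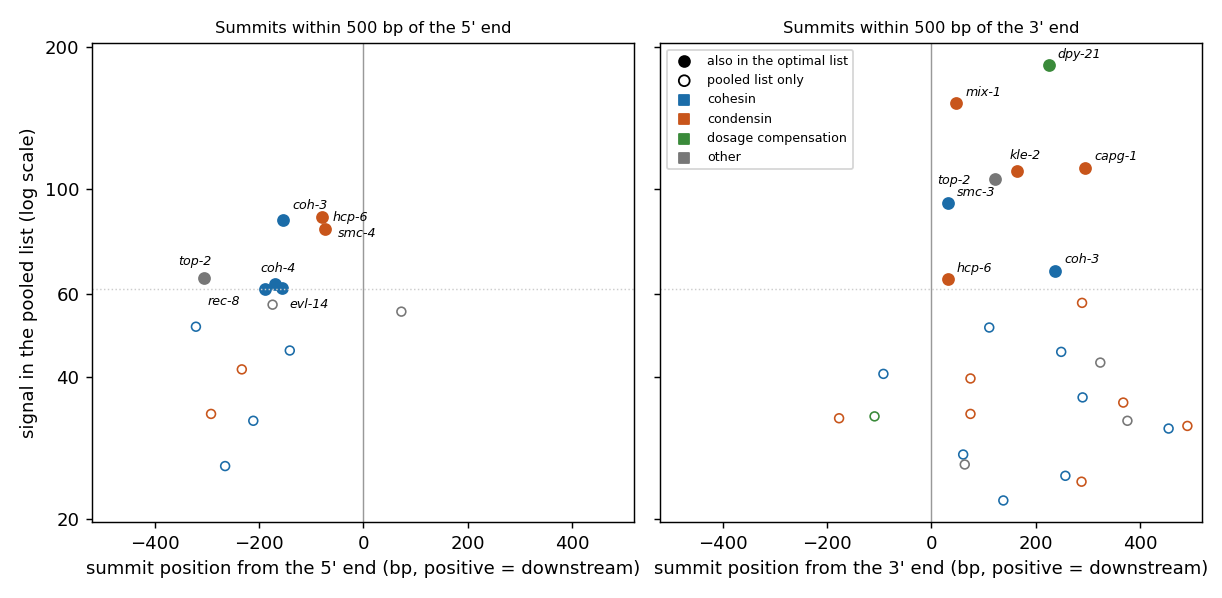
Position of each pooled summit within 500 bp of the 5' end (left) or 3' end (right) of the genes, in bp with positive values downstream, against its signal in the pooled list on a log scale; filled points are also in the optimal list, whose lowest signal among these genes is the dotted line, and colours give the group. Optimal summits lie upstream of 5' ends, between -306 and -73 bp, and past 3' ends, between 31 and 295 bp, and the cohesin genes coh-4, rec-8 and evl-14 sit at the dotted line.

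Optimal summits were at 6 of 12 cohesin genes and 5 of 9 condensin genes, against 11.5% of all genes. Among the 1025 strongest optimal peaks the counts were 2 of 12 and 4 of 9, so the shares were less alike in the shorter list. The share of all genes with a summit in that shorter list was not counted. The condensin summits had the higher median signal. The cohesin share was 50% (interval 21.1 to 78.9%), and its interval overlaps that of the condensin genes over most of its length. At the 5' end there were 4 of 12 cohesin genes (33.3%, interval 9.92 to 65.1%) and 2 of 9 condensin genes (22.2%, interval 2.81 to 60%; all genes 4.47%). At the 3' end there were 2 of 12 (16.7%, interval 2.09 to 48.4%) and 4 of 9 (44.4%, interval 13.7 to 78.8%; all genes 6.80%). In the count by nearest gene only, summits inside a neighbour went to that neighbour. The 3' end counts were then 2 of 12 and 0 of 9, and the share of all genes was not counted in that way. With so few genes the intervals of the 2 groups were wide and overlapped at each end. A difference between the groups was not tested, and none is read from these shares. The median signal over the 7 cohesin summits was 67.2 (range 61.5 to 93.4, median rank 1681) and over the 7 condensin summits 109 (range 64.4 to 164, median rank 563). Without mix-1 the condensin median was 87.2 over 5 summits. The 2 ranges overlap, and 2 of the 7 cohesin summits and 5 of the 7 condensin summits were above the median of the whole list. At 5' ends alone the medians were 62.2 for cohesin and 84.7 for condensin genes, against 79.5 for all 758 optimal summits counted at 5' ends. In the pooled list 10 of 12 cohesin and 9 of 9 condensin genes had a summit, against 49.8% of all genes.

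**Figure D3:**
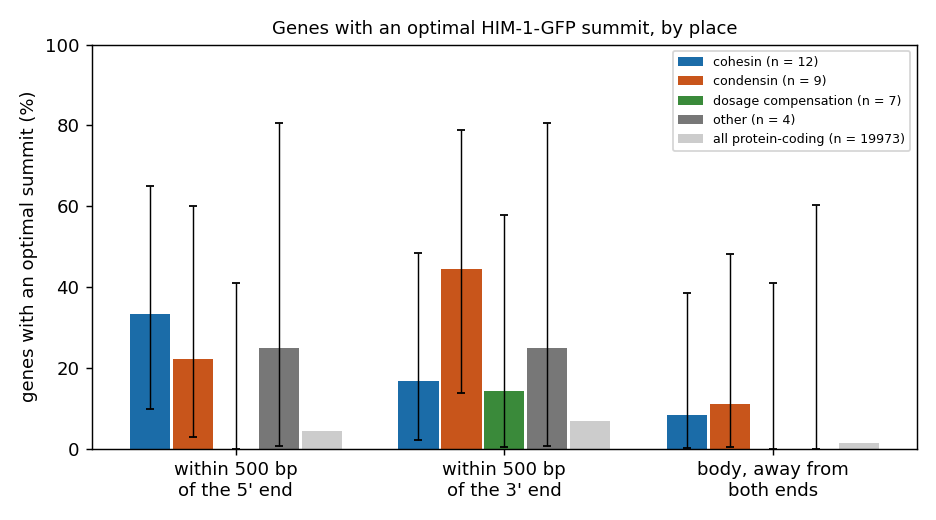
Percentage of genes with an optimal summit within 500 bp of the 5' end, within 500 bp of the 3' end or in the body, for the 4 groups of genes and for all 19973 protein-coding genes; lines are 95% Clopper-Pearson intervals, which cover counting error over genes only. The cohesin bar is highest at the 5' end (33.3%) and the condensin bar at the 3' end (44.4%), with intervals that overlap each other.

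The dosage compensation genes outside the condensin complex had optimal summits at 1 of 7 (14.3%, interval 0.361 to 57.9%), near the 11.5% of all genes and so not a result about the group. That was dpy-21 (V, 17936282 to 17949193, minus strand), which encodes a histone H4 lysine 20 demethylase of the complex. Its summit, 225 bp past the 3' end, had the highest signal of all 17 (183, rank 111), and signals of 100 and 98.4 in the replicates (ranks 51 and 144). No protein-coding gene end lay nearer, since the next gene, usp-50, ends 2047 bp from dpy-21. Of the other genes, dpy-30, whose product also belongs to histone H3 lysine 4 methyltransferase complexes, had a pooled summit at the 3' end (33.0, rank 7122), only 3 bp from the 5' end of rnp-1. The X-linked genes sdc-1, a zinc finger gene, and sex-1, a nuclear receptor gene that represses xol-1, had pooled signals of 21.8 and 29.5 in the body. For sdc-2, sdc-3 and xol-1 no pooled summit was found, and each had summits in 1 replicate only, with signals of at most 11, 19.2 and 11.2.

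The dpy-21 summit and the intronic mix-1 summit are the 2 strongest of the 17, and their windows are shown because both hold the letters of a B box, the internal promoter element of tRNA genes. The capitals mark GTTCGANNC or its reverse complement, in chrV:17936007-17936107 (minus strand) and chrII:10840245-10840345 (plus strand), each on the strand of the gene.
dpy-21: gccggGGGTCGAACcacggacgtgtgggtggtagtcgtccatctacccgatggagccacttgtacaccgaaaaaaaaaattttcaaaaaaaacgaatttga
mix-1: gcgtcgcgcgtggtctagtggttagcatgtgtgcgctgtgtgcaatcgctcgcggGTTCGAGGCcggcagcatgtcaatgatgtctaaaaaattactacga

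The motif was chosen after these windows had been seen. It was also in the coh-4 window printed above, and so in 3 of the 17 (17.6%), against 10.1% of all optimal windows. It was in 37.8% of the 407 optimal windows within 250 bp of an annotated tRNA gene, in 3.28% of the other 1644 and in 0.531% of windows centred 150 bp upstream of protein-coding genes. None of the 3 windows lay within 250 bp of an annotated tRNA gene. A match to these letters does not show that the site is used.

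Genes on X and on autosomes were read against different backgrounds. None of the 5 X-linked genes (coh-1, sdc-1, sdc-2, sex-1 and xol-1) had an optimal summit (interval 0.0 to 52.2%), against 4.28% of all X genes. Of the 27 autosomal genes 13 had one (48.1%, interval 28.7 to 68.1%), against 12.6% of all autosomal genes. A count of 0 of 5 is near that background and is not a result about these genes. Since 4 of the 5 are dosage compensation genes, position on X and role cannot be told apart here.

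Among the other 4 genes, top-2, the gene of DNA topoisomerase II, had summits at both ends. At top-2 (II, 11875148 to 11880588, plus strand) the summit 122 bp past the 3' end had a signal of 105 (rank 625), with 47.8 and 54.7 in the replicates (ranks 640 and 799). The summit at -306 bp had a signal of 64.8 (rank 1819) and was 54 bp from the 5' end of npp-3, a nuclear pore gene, nearer than to that of top-2. The replicates ranked it 3305 and 1426. Just outside the list were smc-5, of the SMC-5/6 repair complex, with a pooled signal of 56.9 (rank 2354) at -174 bp, and lab-1, which protects meiotic cohesin, with 55.0 (rank 2499) at 73 bp. For smc-5 replicate 1 was the higher (rank 1056 against 8515), and for lab-1 replicate 2 (rank 1662 against 7967). No pooled summit was found at smc-6.

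Positions of the summits at gene ends were like those at other genes. All 7 optimal summits at 5' ends were upstream, at a median of -155 bp, as were 80.1% of such summits at all genes (median -176 bp). All 8 at 3' ends were downstream of the gene, at a median of 143 bp, as were 75.7% at all genes (median 154 bp). At the 7 genes with a 5' end summit the next gene was on the opposite strand, head to head, in 7 cases. That holds for 55.9% of all genes with an optimal 5' end summit and for 45.0% of all genes, but also for 18 of the 25 listed genes without one (72.0%). The arrangement therefore did not separate the genes with a 5' end summit from the rest of the list. At 3' ends the next gene was on the opposite strand, tail to tail, at 6 of the 8 genes with a summit and at 5 of the 24 without (20.8%). The shares were 61.2% for all genes with an optimal 3' end summit and 45.1% for all genes. The 2 exceptions at 3' ends were coh-3 and top-2. An end of another gene was nearer to the summit than the listed gene's own in 5 of 17 cases, coh-4, top-2 at its 5' end and capg-1, and the summits in the bodies of scc-2 (cat-2) and mix-1 (M106.8). Of the 17 summits 12 were intergenic, 2 in introns, 2 in 3' UTRs and 1 in a coding exon. The GC content of the 101 bp windows ran from 24.8 to 54.5% with a median of 43.6%, against 40.6% for all optimal windows, and at least 98.6% of the 32-base words of each peak occur once in the genome.

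With the strongest replicate summit within 200 bp taken, more condensin than cohesin summits ranked high in both replicates. In each replicate all 7 condensin summits ranked within the first 2051, and in both replicates so did 3 of the 7 cohesin summits and 12 of the 17 in all. The share of all 2051 optimal summits that ranked so in both replicates was not counted. The counts are therefore not read as particular to either group. Of the 17, 12 ranked within the first 2051 in both replicates. The 5 that did not were those of evl-14 and top-2 (5' end), which ranked too low in replicate 1, and of rec-8, scc-2 and coh-3 (3' end), which ranked too low in replicate 2. The coh-3 summit missed by little, at rank 2063. In replicate 1 a nearer but weaker summit ranked outside 2051 at smc-4 (6167), capg-1 (3074), hcp-6 at the 3' end (2064) and smc-3 (3662). The counts therefore rest on taking the strongest summit. The optimal list was itself made from the replicates, so presence in both is not separate evidence, and cohesin summits had lower signals to begin with. When the 2051 strongest peaks of each replicate stood in for the optimal list, 14 of the 32 genes had a summit in replicate 1 (background 11.3%) and 12 in replicate 2 (background 11.4%).

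**Figure D4:**
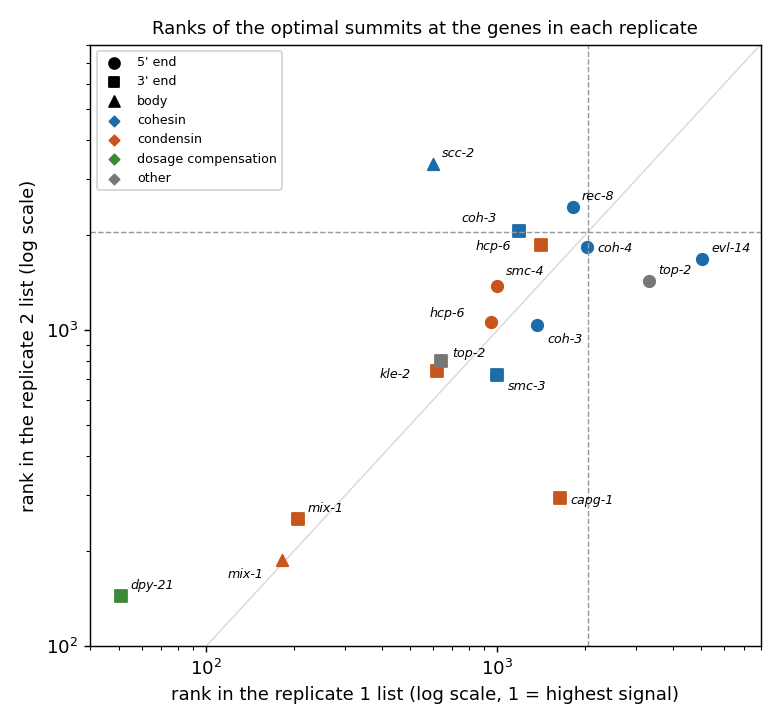
Rank of each of the 17 optimal summits in the list of replicate 1 (x axis) and replicate 2 (y axis), both on log scales with 1 as the highest signal; dashed lines mark rank 2051, the grey line marks equal ranks, shapes give the place and colours the group. Each rank is that of the strongest replicate summit within 200 bp. The dpy-21 and mix-1 summits rank high in both, scc-2 is far higher in replicate 1 (599 against 3345), and capg-1 is far higher in replicate 2 (294 against 1633).

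Genes that work beside cohesin and dosage compensation were listed as well. Of 19 genes for chromosome segregation, the meiotic axis and the replication fork that matched the annotation, 7 had an optimal summit (36.8%, interval 16.3 to 61.6%). At the 5' end these were tim-1, a replication fork gene, with the highest signal (142), bir-1 (68.6) and air-2 (65.2) of the Aurora B complex, sgo-1, the shugoshin gene (70.0), bub-1, a checkpoint kinase gene (63.4), and ctf-4 (64.1). The ctf-4 summit was nearer the 5' end of eef-1G, and the tim-1 summit nearer that of Y75B8A.23. At the 3' end they were bub-1 (70.6), nearer to ztf-15, and htp-2, a meiotic axis gene (71.9), nearer to puf-11. Thus 6 of the 19 had a 5' end summit (31.6%, interval 12.6 to 56.6%), against 4.47% of all genes. Among the 2051 strongest peaks of replicate 1 alone 2 of the 19 did (10.5%, interval 1.3 to 33.1%). The 5' end share of all genes was not counted for that list. In it 5 of the 19 had a summit anywhere (26.3%, interval 9.15 to 51.2%), against a background of 11.3%. Among the 2051 strongest peaks of replicate 2, 5 of the 19 had a 5' end summit (26.3%, interval 9.15 to 51.2%). The 5' end share of all genes was not counted there either. In the replicate 2 list 6 of the 19 had a summit anywhere (31.6%, interval 12.6 to 56.6%), against a background of 11.4%. Of 18 genes for sex determination and histone marks linked to dosage compensation, 4 had an optimal summit (22.2%, interval 6.41 to 47.6%). The strongest were at the 3' ends of tra-2 (229), which encodes a membrane receptor, and tra-1 (181), which encodes the final transcription factor of the pathway. The others were fem-2 at the 3' end (74.8), nearer to T19C3.6, and set-4, a histone H4 lysine 20 methyltransferase gene, at the 5' end (64.9). Another optimal summit at tra-2 (86.1, rank 958) lay at -102 bp from its 3' end, nearer the 3' end of ceh-38 (77 bp). Of all protein-coding genes 11.5% had an optimal summit. The intervals cover counting error over genes only, and the lists were chosen with earlier results of these data known. Neither set was therefore tested against that share.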

How the data were processed

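ChIP-seq of HIM-1-GFP was analysed in 2 libraries of 1 group from the authors' deposited ce11 peak lists. Per the deposited file lists, peaks were called with a control, per replicate and on pooled alignments, and thresholded by IDR. Aligner and caller: not given in the sources used here. The signal of each peak and its q-value, as −log10, are as deposited by the authors. Read depth is unknown, and control reads and the ce10 lists were not used here.

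Gene ends came from the Ensembl annotation (release 115) of WBcel235, the sequence of ce11. A summit within 500 bp of several genes counted for each of them. Replicate summits were matched within 200 bp, and the strongest was taken where there were several. Clopper-Pearson intervals (95%, SciPy 1.17.1) cover counting error over genes only. No p-value was computed. Placement was tested on simulated data, where 400 of 400 genes were placed as planted. Proteins, translated from the annotation, were aligned with Biopython 1.88 (BLOSUM, gap costs 11 and 1). Members, lists and motifs were chosen with earlier results of these data known. Genes named were all 32 members, each neighbour nearer an optimal summit, and each partner gene with an optimal summit.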

Additional observations from a re-analysis of the deposited data

How the results depend on the processing

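Alternatives changed windows (250 and 1000 bp), lists, gene models and the way summits were assigned, 11 for each of 8 counts. The pooled list cut to as many peaks holds the same peaks, so its values could not differ. Of the 80 other values 68 stayed within 1.5 times the count reported. Among the 1025 strongest optimal peaks there were 8 genes with a summit anywhere, 2 at the 5' end (coh-3 and hcp-6) and 1 in the body. These included 2 cohesin and 4 condensin genes anywhere, 1 cohesin gene at the 5' end and 1 condensin gene at the 5' end. The share of all genes in that shorter list was not counted. A further alternative gave each summit to the nearest protein-coding gene only, and a summit inside a neighbour to that neighbour. With it 4 genes had a summit at the 3' end, of which 0 were condensin genes (4 before). Anywhere, 3 condensin genes had one. The share of all genes was not counted with this alternative. The count in the body was 1 with every transcript start and end, 1 without summits near small RNA genes and 1 with RefSeq gene models, the last chosen after seeing the data. Leaving out replicate 1 or 2 gave 12 to 14 genes anywhere, 7 at the 5' end in both cases, 7 to 8 at the 3' end and 1 to 2 in the body, where scc-2 was lost without replicate 1. It gave 4 to 6 cohesin and 5 condensin genes anywhere, and 3 to 4 cohesin and 2 condensin genes at the 5' end. The 7 genes at the 5' end were not the same in both cases. Without replicate 1, rec-8 was lost from the 5' end genes and lab-1 was added. Without replicate 2, evl-14 and top-2 were lost from them and mau-2 and smc-5 were added. Genes with a summit in every setting were coh-3, dpy-21, hcp-6, mix-1, smc-3 and top-2. No paired analysis was possible because there is 1 group. Groups of 4 to 12 genes give wide intervals. Differences between cohesin and condensin shares were not tested, and none is read from them.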
